A study of Drosophila melanogaster with 12 samples.

Results

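Levels of 10 genes for PIWI proteins and for cytoplasmic piRNA processing were followed in testes and ovaries of Tdrd5l mutant Drosophila melanogaster and in those of a control line. The genes, piwi, aub, AGO3, spn-E, zuc, armi, squ, mael, shu and Hen1, were taken by name for their place in the pathway, and all 10 were among the 17558 features counted in every library. Tdrd5l encodes a Tudor domain protein. The 4 groups were testes of Tdrd5l mutant males and of control males, 1 to 2 days old, and ovaries of Tdrd5l mutant females and of control females, 0 to 1 day old, with 3 libraries in each group. All flies were kept at 25 °C. The control genotype is given as cas9 iso. The sources used here do not give the molecular lesion of the mutant, or whether it rests on 1 or several lines. Whole gonads were dissected, so germ cells and somatic cells entered together, and fewer cells of a type and less RNA per cell cannot be told apart. Ribosomal RNA was depleted in testis samples, whereas ovary samples were selected for poly(A), so that tissue, sex, age and RNA selection cannot be told apart either.

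PIWI proteins are Argonaute proteins of the gonad that carry small RNAs called piRNAs and silence transposons. Piwi acts in the nucleus of germ cells and of gonadal somatic cells, where it directs silencing of transcription. Aub and AGO3 act in germ cell cytoplasm, in the perinuclear nuage, and slice transposon RNA in turn in the ping-pong cycle. Other long precursor RNAs are unwound by the helicase Armi and cut at mitochondria by the nuclease Zuc, which yields phased piRNAs bound mainly by Piwi. In testes the pathway is also known for silencing the repeated Stellate genes through Aub.

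Gene counts totalled 1390699 to 2880119 per testis library and 772292 to 1647933 per ovary library, and the 10 genes together drew 473 to 977 counts in a testis library and 272 to 1522 in an ovary library. Levels are counts per 1000000 gene counts (CPM). Tdrd5l itself read 326, 269 and 414 CPM in mutant testes, against 389.7, 324 and 307 CPM in control testes. It read 13.2, 4.85 and 12.05 CPM in mutant ovaries, against 9.28, 4.75 and 7.77 CPM in control ovaries. The genotypes overlapped in both tissues, and in testes the log2 difference was 0.01 with an SE of 0.34 (edgeR, adjusted p = 0.998). Since the lesion is not described, this count checks no label. The tissue labels were checked on markers: the late spermatid genes p-cup, soti, ProtA and ProtB were at 0 in all 6 ovary libraries, and all 6 late spermatid markers were counted in testes, at summed levels of 399 to 1270 CPM in mutant testes and 494 to 870 CPM in control testes. The other 2, w-cup and whip, were counted in mutant ovaries, where the list summed to 0 to 2.19 CPM. The nurse cell and oocyte markers summed to 257 to 1270 CPM in mutant ovaries and 317 to 537 CPM in control ovaries, but also to 261 to 420 CPM in mutant testes and 323 to 402 CPM in control testes. Follicle cell markers summed to 24.1 to 945 CPM in mutant ovaries and 16.6 to 63.9 CPM in control ovaries. They were higher in control testes than in control ovaries, at 79.4 to 88.1 CPM, and summed to 58 to 107 CPM in mutant testes. Replicates of a group differed by more than counting noise throughout, with a chi-square per degree of freedom of 4.31 to 50.6 over pairs.

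Mutant ovary replicate 2 stood apart from the other 5 ovary libraries. It gave the highest CPM of the 6 for 9 of the 10 genes, all but zuc, while it was the highest library for 42.7% of the 4683 genes tested in ovaries. The 10 genes summed to 299.2, 923.6 and 304.5 CPM in mutant ovary replicates 1, 2 and 3, against 541.3, 349.4 and 411.8 CPM in control ovaries. In testes they summed to 339.2, 302.2 and 356.3 CPM in mutants and 340.1, 329.2 and 330.2 CPM in controls, a narrow band with no such library. Replicate 2 also had the largest ovary total and the highest sums of several marker lists. Its follicle cell markers summed to 945 CPM, against 24.1 and 33 CPM in the other mutant ovaries and 16.6 to 63.9 CPM in control ovaries, and its muscle sheath markers to 3550 CPM, against 309 and 347 CPM in the other mutant ovaries and 758 to 2400 CPM in control ovaries. Germline lists were highest there too: nurse cell and oocyte markers summed to 1270 CPM, against 257 and 260 CPM in the other mutant ovaries and 317 to 537 CPM in control ovaries, and germline stem cell and spermatogonial markers to 261 CPM, against 94.2 and 114 CPM in the other mutant ovaries and 113 to 144 CPM in control ovaries. Somatic cyst and hub markers summed to 389 CPM, against 129 and 145 CPM in the other mutant ovaries and 122 to 219 CPM in control ovaries. The part of these marker differences in the results was not tested. For most of the 10 genes, ovary differences between genotypes and tissue differences in mutants are therefore given with and without this library. Levels per kilobase in mutant ovaries, the other gene lists, the overlapping genes and most interaction values are given with it only.

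The overlap of genes on opposite strands also set the libraries apart. Of the 17252 annotated features, 4463 have exon bases that lie opposite an exon of another gene on the other strand. The share of gene counts in features with no such overlap was 40%, 43.9% and 27.4% in mutant testes and 30.1%, 34.3% and 37.7% in control testes. It was 9.46%, 32.5% and 8.9% in mutant ovaries, against 17.6%, 12.1% and 10.5% in control ovaries. Of the 1821 genes tested in ovaries without such overlap, 69.5% were highest in mutant ovary replicate 2, beside 42.7% of all genes tested there. The 5 genes of the set without an opposite exon are AGO3, spn-E, armi, squ and Hen1, and in ovaries their summed CPM was highest where this share was highest, at 59.41, 355.6 and 37.24 CPM in mutant ovaries, against 151.6, 48.73 and 94.52 CPM in control ovaries. In testes the same sum was 210.1, 174.3 and 194.3 CPM in mutants and 192, 203.3 and 223.9 CPM in controls. Of uniquely aligned records, only 3.33% to 5.02% in testis and 1.95% to 3.29% in ovary libraries fell in genes. The sources used here do not say which strand setting was used in counting. A CPM here may therefore not measure the sense RNA of its gene alone. With the log2 ratio of the 2 classes of counts as a term of the model, 0 of the genes of the set that were tested were called between genotypes in either tissue, and its part in the differences between tissues was not tested.

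**Figure D1:**
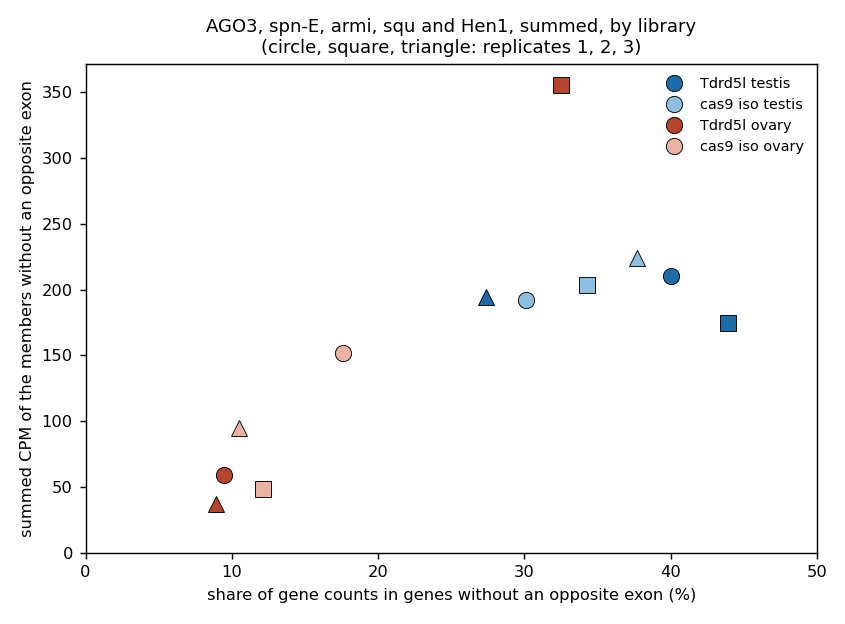
Summed CPM of AGO3, spn-E, armi, squ and Hen1, which have no exon opposite another gene, against the percent of all gene counts in features without an opposite exon, 1 point per library. Mutant ovary replicate 2 lies at 32.5% and 355.6 CPM, above all testis libraries on the vertical axis, while the other 5 ovary libraries lie between 8.9% and 17.6% and between 37.24 and 151.6 CPM.

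All 3 PIWI genes were counted in every library. piwi (FBgn0004872, chromosome 2L, 10982205 to 10987420, minus strand; positions here are from the Ensembl 115 annotation of BDGP6.54) read 57.3, 63.4 and 87.7 CPM in mutant testes, against 82.0, 49.6 and 43.5 CPM in control testes. It read 149.6, 333 and 172 CPM in mutant ovaries, against 290.8, 209 and 255 CPM in control ovaries. Both ovary groups lay above both testis groups, with the genotypes overlapping in each tissue. aub (FBgn0000146), which lies beside piwi on the same strand of 2L (10997819 to 11001476), read 7.64, 12.4 and 8.53 CPM in mutant testes, against 8.63, 26.6 and 20.2 CPM in control testes. In ovaries it read 13.2, 103 and 7.67 CPM in mutants and 21.7, 13.1 and 18.1 CPM in controls, so that 1 library sets the mutant mean. AGO3 (FBgn0250816, 3L, 23554593 to 23689640, plus strand) read 14.2, 17.1 and 25.6 CPM in mutant testes, against 23.0, 17.7 and 35.4 CPM in control testes. In ovaries it read 17.6, 61.9 and 5.48 CPM in mutants and 26.8, 10.7 and 12.9 CPM in controls, again with replicate 2 the highest.

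Of the 2 RNA helicases, armi (FBgn0041164, 3L, 3461317 to 3466314, plus strand) was the most counted gene of the set in testes, at 103, 76.6 and 92.0 CPM in mutants and 105, 92.8 and 109 CPM in controls. It read 28.6, 198 and 23.0 CPM in mutant ovaries, against 70.1, 26.1 and 60.9 CPM in control ovaries. Nearly all of its exon bases are shared on the same strand with CG46463, an annotated gene that is not among the counted features, so that counts of the 2 cannot be told apart. spn-E (FBgn0003483, 3R, 15837419 to 15844415, plus strand), a DExH helicase with a Tudor domain that is needed for ping-pong, read 55.6, 39.0 and 54.8 CPM in mutant testes, against 57.5, 76.8 and 48.5 CPM in control testes. It read 4.40, 61.3 and 5.48 CPM in mutant ovaries, against 35.1, 4.75 and 11.7 CPM in control ovaries. Each ovary group thus held 1 library well above its others.

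The precursor nuclease and squ differed in where they were counted. zuc (FBgn0261266, 2L, 11988735 to 11989882, minus strand) was low in testes, at 3.12, 2.55 and 4.26 CPM in mutants and 5.03, 5.32 and 4.49 CPM in controls, from 7 to 10 counts per library. It was high in ovaries, at 48.4, 40.7 and 67.9 CPM in mutants and 53.6, 61.8 and 28.5 CPM in controls, and was the only gene of the 10 for which mutant ovary replicate 2 was not the highest ovary library. squ (FBgn0267347, 2L, 16680054 to 16681653, plus strand), whose protein lies with Aub in nuage, read 21.9, 24.1 and 15.8 CPM in mutant testes, against 3.60, 11.8 and 20.2 CPM in control testes. In ovaries it read 4.40, 23.1 and 2.19 CPM in mutants and 9.28, 0 and 1.29 CPM in controls. The 0 of control ovary replicate 2 allows a level of up to 3.57 CPM, the value of 3 counts in that library. The 5′ UTR of squ shares 223 bases, 16.3% of its exon bases, with grp on the same strand. grp averaged 32.8 CPM in mutant testes, 31.5 CPM in control testes, 51.2 CPM in mutant ovaries and 29.6 CPM in control ovaries. Reads of the shared bases cannot be told apart.

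Among the remaining genes, mael (FBgn0016034, 3L, 22721203 to 22726234, plus strand), whose protein shuttles between nuage and nucleus and acts downstream of Piwi in silencing, read 26.4, 26.3 and 18.9 CPM in mutant testes, against 14.4, 16.0 and 14.8 CPM in control testes. It read 23.1, 44.3 and 18.6 CPM in mutant ovaries, against 11.3, 9.51 and 9.06 CPM in control ovaries. It was the only gene of the set whose mutant libraries all lay above all control libraries in both tissues. shu (FBgn0003401, 2R, 23841461 to 23843286, minus strand), a co-chaperone that helps load piRNAs onto PIWI proteins, read 34.7, 23.3 and 42.6 CPM in mutant testes, against 38.1, 28.4 and 23.3 CPM in control testes, and 5.50, 46.7 and 1.10 CPM in mutant ovaries, against 12.4, 7.13 and 6.47 CPM in control ovaries. Hen1 (FBgn0033686, 2R, 12145710 to 12152752, plus strand), the methyltransferase that caps the 3′ end of finished piRNAs, read 15.3, 17.5 and 6.09 CPM in mutant testes, against 2.88, 4.14 and 10.3 CPM in control testes. In ovaries Hen1 read 4.40, 10.9 and 1.10 CPM in mutants and 10.3, 7.13 and 7.77 CPM in controls. The genotypes overlapped for shu and for Hen1 in both tissues.

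**Figure D2:**
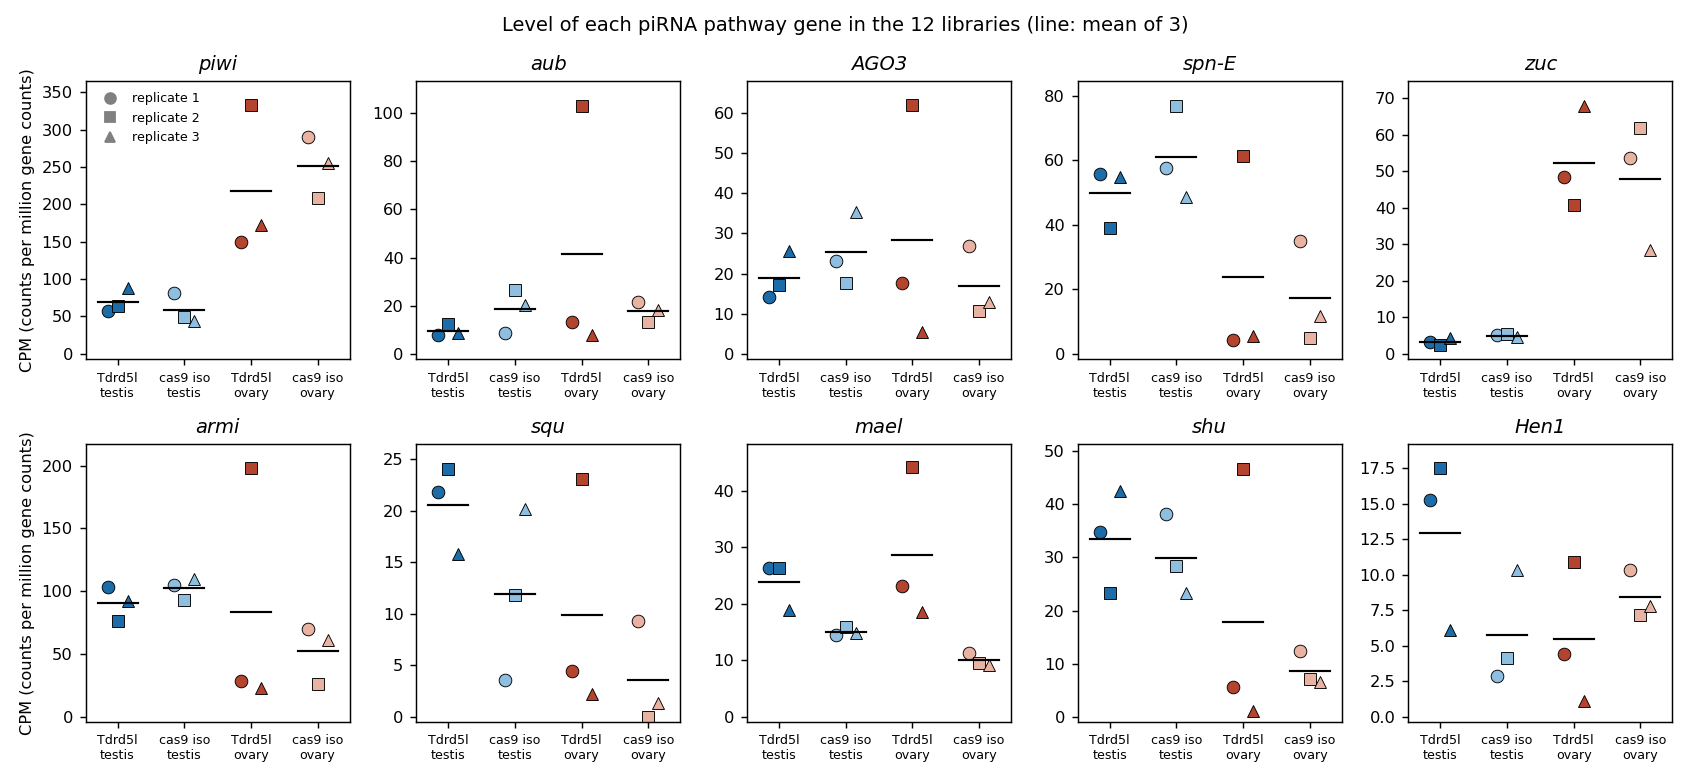
CPM of each of the 10 genes, 1 panel per gene, in mutant testis, control testis, mutant ovary and control ovary libraries (3 points per group, shaped by replicate number, with a line at the mean). Mutant ovary replicate 2, the square, is the highest ovary point for 9 of 10 genes, and mael is the gene with mutant points above control points in both tissues.

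Levels of different genes were compared as CPM per kilobase of exon. In control ovaries piwi stood first, at 81.9 ± 13.3 (SD, n = 3), above 93.2% of the protein-coding genes counted there. zuc followed at 41.8 ± 15.1 and armi at 12.6 ± 5.57, and these first 3 did not overlap. The other 7 ran from 5.84 ± 1.43 for aub through Hen1, AGO3, shu, mael and spn-E to 2.57 ± 3.66 for squ, each overlapping its neighbour. The median coding gene was at 3.57 CPM per kilobase. In mutant ovaries piwi (71.0 ± 32.6) and zuc (45.6 ± 12.2) again stood first and every neighbour in the order overlapped. Both of these genes have exon bases opposite another gene, the class that held most counts in all ovary libraries, and ranks of genes with and without an opposite exon may not be comparable.

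In testes the order per kilobase was different and flatter. In mutant testes piwi (22.6 ± 5.23), armi (21.8 ± 3.20) and shu (19.8 ± 5.73) led and overlapped. The lowest were aub (3.16 ± 0.839) and zuc (2.89 ± 0.759), and only the step between AGO3 (5.97 ± 1.85) and aub was free of overlap. In control testes armi (24.6 ± 2.07), piwi (19.0 ± 6.72) and shu (17.7 ± 4.43) led, zuc (4.31 ± 0.368) and Hen1 (3.67 ± 2.53) came last, and all neighbours overlapped. The median coding gene was at 6.76 CPM per kilobase in mutant testes and 6.95 in control testes.

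The study compared the genotypes within each tissue, and the same comparison asks here whether mutation of Tdrd5l went with other levels of the piRNA genes. In testes no gene of the set changed by the test. Of the 9 with enough counts, 0 passed an adjusted p of 0.05 in edgeR, where 0.942% of all 9768 tested genes passed (92 genes), and the count was also 0 with DESeq2 and with limma-voom. The 9 log2 differences, mutant minus control, ran from -0.96 to 1.10 with a median of 0.19, beside a median of 0.03 over all tested genes. At an unadjusted p under 0.05 there were 712 of the 9768 genes, 1 of them of the set, aub. This gene averaged 9.52 ± 2.53 CPM in mutants and 18.5 ± 9.11 CPM in controls (SD, n = 3 each). Its log2 difference was -0.96 with an SE of 0.47 (edgeR, adjusted p = 0.664). Control testis replicate 1, at 8.63 CPM, lay within the mutant range. Germ cell markers also differed between these libraries: germline stem cell and spermatogonial markers summed to 806, 710 and 1070 CPM in mutant testes, against 1200, 1120 and 1130 CPM in control testes, without overlap, and 0 of the 4 tested were called. Late spermatid markers summed to 1110, 1270 and 399 CPM in mutant testes, against 494, 644 and 870 CPM in control testes, with mutant replicate 3 the lowest. The part of these marker levels in the differences of aub, Hen1 and squ was not tested.

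Hen1, squ and mael had the largest differences in the other direction in testes without passing. Hen1 averaged 12.96 ± 6.05 CPM in mutants and 5.78 ± 3.98 CPM in controls, a log2 difference of 1.10 (SE 0.56; edgeR, adjusted p = 0.704). squ averaged 20.6 ± 4.26 CPM in mutants and 11.9 ± 8.30 CPM in controls, a log2 difference of 0.76 (SE 0.46; edgeR, adjusted p = 0.777). mael averaged 23.8 ± 4.29 CPM in mutants and 15.05 ± 0.816 CPM in controls, a log2 difference of 0.66 (SE 0.40; edgeR, adjusted p = 0.779), and was the 1 tested gene of the set whose genotypes did not overlap. Such separation was seen for 11.8% of all tested genes, with mutants higher in 5.67% and lower in 6.12%. For the rest, the log2 difference was 0.26 (SE 0.35) for piwi, -0.42 (SE 0.41) for AGO3, -0.27 (SE 0.34) for spn-E, -0.17 (SE 0.32) for armi and 0.18 (SE 0.38) for shu, with adjusted p of 0.898 to 0.962 in edgeR. The intervals of these values still hold differences of some size: that of piwi ran from -0.46 to 0.98 and that of AGO3 from -1.24 to 0.41 (95%, log2). zuc, with 23 counts over the 3 mutant and 26 over the 3 control testes, was below the count filter, and no test was made in the main comparison. Its mutant CPM lay under its control CPM without overlap. After TMM scaling, on which the shares above were taken, its genotypes overlapped, with 4.93 in mutant replicate 3 and 4.33 in control replicate 3.

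In ovaries no gene of the set changed by the test either. squ, shu and Hen1 were below the filter, and of the other 7, 0 passed in edgeR, where 0% of the 4683 tested genes passed. At an unadjusted p under 0.05 there were 184 genes, 1 of them of the set, and DESeq2 called 14 genes, none of them of the set. The 7 log2 differences ran from -0.11 to 1.61 with a median of 0.70, beside 0.14 over all tested genes. Much of that height came with mutant ovary replicate 2: without it, the log2 difference was -0.48 in place of 1.25 for aub, -0.26 in place of 0.81 for AGO3, -1.49 in place of 0.51 for spn-E and -0.75 in place of 0.70 for armi. All 4 then pointed the other way, and none passed with or without that library (edgeR, adjusted p = 0.999 with it and 0.368 to 0.863 without it). Without it 55 genes in all were called, 1.14% of those tested and 0 of them of the set. piwi differed by -0.11 (SE 0.33) with all libraries and -0.38 without replicate 2, and zuc by 0.29 (SE 0.44) and 0.53.

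The 1 gene of the set at an unadjusted p under 0.05 in ovaries was mael. It averaged 28.7 ± 13.7 CPM in mutants and 9.97 ± 1.21 CPM in controls (SD, n = 3 each), a log2 difference of 1.61 with a 95% interval of 0.44 to 2.79 (edgeR, adjusted p = 0.98). Its p ranked 62nd of the 4683. Without mutant ovary replicate 2 the difference was 1.32 (adjusted p = 0.235), and over all alternatives it ran from 1.32 to 1.67 with adjusted p of 0.1 to 1. In testes its log2 difference ran from 0.59 to 0.69 over the alternatives, with adjusted p of 0.292 to 1. Mutant libraries lay above control libraries without overlap in 4.31% of genes tested in ovaries, 9.97% in either direction, and in both tissues together for 11 of the 4223 genes tested in both (0.26%). In depth, mael rested on 179 counts in the 3 mutant testes, against 80 in the 3 control testes, and on 111 counts in the 3 mutant ovaries, against 26 in the 3 control ovaries.

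**Figure D3:**
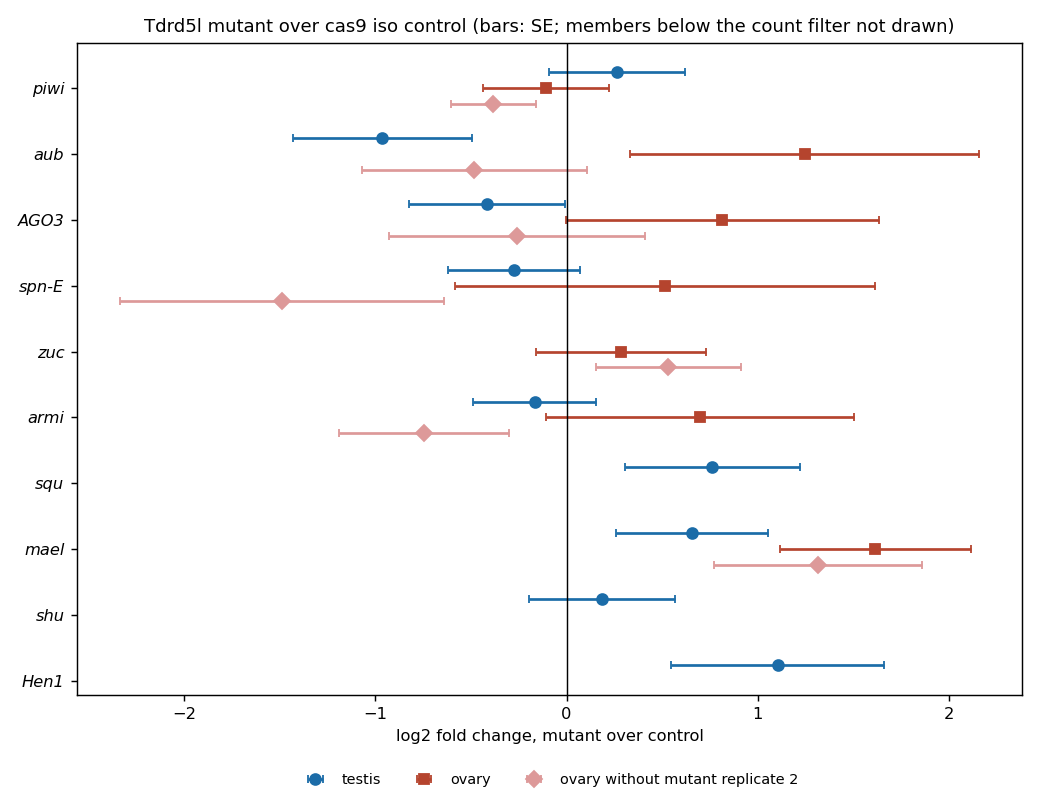
Log2 fold change of each gene, Tdrd5l mutant over cas9 iso control, in testes, in ovaries and in ovaries without mutant replicate 2 (points, with bars of 1 SE; genes below the count filter have no point). mael lies above 0 in all 3 fits, at 0.66, 1.61 and 1.32, while aub, AGO3, spn-E and armi lie above 0 in ovaries only when replicate 2 is included.

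Whether the genotype difference was unlike in the 2 tissues was tested with an interaction over all 12 libraries. Of the 10 genes, 0 passed, beside 0.0291% of 10321 tested genes (3 genes), and 0 had an unadjusted p under 0.05, where 550 of all tested genes did. DESeq2 called 13 genes and limma-voom 6, 0 of the set in either. aub had the smallest p of the set, with a log2 difference of differences, testis minus ovary, of -1.87 (SE 0.91; edgeR, adjusted p = 0.951), and -0.47 without mutant ovary replicate 2. Hen1 followed at 1.83 (SE 1.01; edgeR, adjusted p = 1).

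Between tissues the levels differed for several of the genes, in both directions, in libraries that also differ in sex, age and RNA selection. In controls, 5 of 9 tested genes passed in edgeR, where 75.7% of 8427 tested genes passed. Lower in testes than in ovaries were piwi, at 58.4 ± 20.7 CPM in testes and 252 ± 40.9 CPM in ovaries (log2 difference -2.24, SE 0.32; adjusted p = 6.76e-06), and zuc, at 4.95 ± 0.423 CPM in testes and 48.0 ± 17.4 CPM in ovaries (log2 difference -3.39, SE 0.46; adjusted p = 3.8e-06). Calls in that direction made up 26.5% of tested genes. The 3 higher in testes were spn-E, at 60.9 ± 14.5 CPM in testes and 17.2 ± 15.9 CPM in ovaries, shu, at 29.9 ± 7.51 and 8.66 ± 3.23 CPM, and armi, at 102 ± 8.63 and 52.4 ± 23.2 CPM. Their log2 differences were 1.69 (SE 0.49), 1.64 (SE 0.48) and 0.84 (SE 0.36), with edgeR adjusted p of 0.00501, 0.00513 and 0.0421. Calls in that direction made up 49.3% of tested genes, and the median over all tested genes was 1.04, so that armi lay below the median gene on this scale. The count of the set was no larger a share than that of all genes.

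aub and AGO3 were not called between control tissues, with log2 differences of -0.06 (SE 0.49) and 0.47 (SE 0.47), and neither were squ (1.57, SE 0.83; edgeR, adjusted p = 0.0962) and mael (0.46, SE 0.50). Hen1 was below the filter. Over the alternatives, piwi, zuc and spn-E kept their calls in each fit they entered, shu lost its call in 2 of 15 (upper quartile scaling and all 12 libraries in 1 model), and armi in 8 of 16. piwi, zuc and shu have opposite exons and could not enter the fit with only genes without one. Their dependence on opposite-strand counts was thus not tested. For spn-E the log2 difference was 0.97 in that fit (edgeR, adjusted p = 0.0483), where the median over all tested genes was 1.02. With upper quartile scaling spn-E was at 1.09 (edgeR, adjusted p = 0.0347). For armi the log2 difference fell to 0.041 with only genes without an opposite exon (edgeR, adjusted p = 0.925) and to 0.22 with upper quartile scaling (adjusted p = 0.576). The call was also lost without control ovary replicate 2 and without control testis replicates 1 or 3, with adjusted p of 0.0826 to 0.187. squ was called without control ovary replicate 1 (log2 difference 3.81, edgeR, adjusted p = 0.00636) and with DESeq2 size factors (1.73, adjusted p = 0.0307).

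Mutant tissues are other libraries under the same contrast. There 3 of 10 genes passed in edgeR, beside 57.5% of 9182 tested genes, and all 3 were lower in testes, as were 19.3% of tested genes, while 38.2% of tested genes and 0 of the 10 were higher. These were piwi, at 69.5 ± 16.1 CPM in testes and 218 ± 100.1 CPM in ovaries (log2 difference -1.69, SE 0.60; adjusted p = 0.022), zuc, at 3.31 ± 0.871 CPM in testes and 52.3 ± 14.0 CPM in ovaries (log2 difference -4.21, SE 0.75; adjusted p = 0.000136), and aub, at 9.52 ± 2.53 CPM in testes and 41.3 ± 53.6 CPM in ovaries (log2 difference -1.94, SE 0.78; adjusted p = 0.0402). The aub call rested on mutant ovary replicate 2, without which the difference was -0.60 (adjusted p = 0.436), and aub lost it in 8 of 15 alternatives. piwi lost its call without mutant testis replicate 1 (-1.52, adjusted p = 0.169) and without mutant testis replicate 2 (-1.51, adjusted p = 0.149), and zuc kept it in every alternative it entered. None of these 3 genes could enter the fit with only genes without an opposite exon.

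Without mutant ovary replicate 2 the mutant tissues gave 6 calls among the 10 genes, 4 higher and 2 lower in testes, beside 74.8% of 9818 tested genes called, 52.7% higher and 22.1% lower. piwi (log2 difference -1.64, adjusted p = 0.000546) and zuc (-4.60, adjusted p = 1.16e-14) stayed lower in testes in edgeR. spn-E (2.89, adjusted p = 2.54e-05), shu (2.90, adjusted p = 0.000139), squ (2.17, adjusted p = 0.00814) and armi (1.37, adjusted p = 0.0104) were then higher in testes. With all libraries these 4 had log2 differences of 1.27, 1.12, 1.11 and 0.31 and edgeR adjusted p of 0.157 to 0.705. AGO3 (-0.46 with all libraries and 0.27 without replicate 2) and Hen1 (1.18 and 1.75) passed in neither fit, and mael differed by -0.34 with all libraries (SE 0.62; edgeR, adjusted p = 0.661). The median over all tested genes was 0.83 with all libraries and 1.87 without that one.

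**Figure D4:**
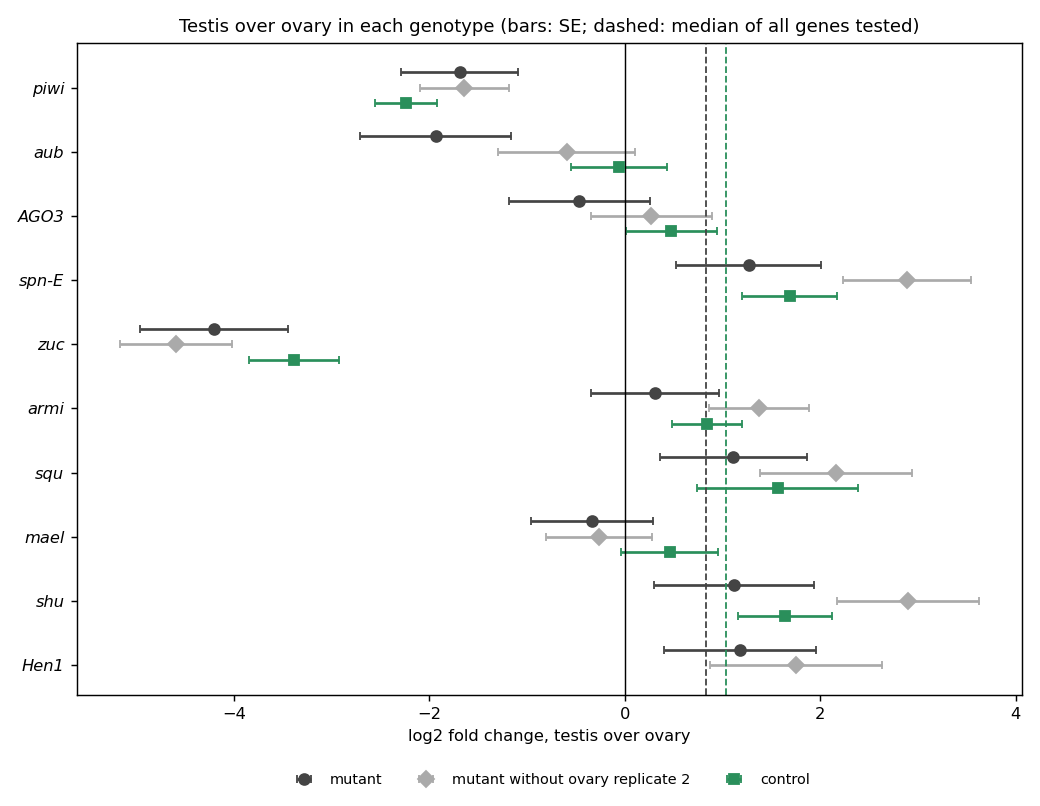
Log2 fold change of each gene, testis over ovary, in mutants, in mutants without ovary replicate 2 and in controls (points, with bars of 1 SE; Hen1 was below the count filter in controls). Dashed lines mark the median of all tested genes in the mutant and control comparisons, 0.83 and 1.04, and piwi and zuc lie left of 0 in every fit.

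Of the 10 genes, 5 have exon bases opposite another gene, and both that were lower in testes in the 2 genotypes, piwi and zuc, are among them. The 3′ UTR of piwi overlaps SCAR, a regulator of actin assembly on the other strand, over 191 bases (2L, 10982205 to 10982395), 6.22% of the exon bases of piwi. SCAR read 20.1, 21.1 and 21.9 CPM in mutant testes, 20.9, 24.2 and 22.0 CPM in control testes, 420.3, 297 and 393 CPM in mutant ovaries and 459.9, 528 and 404 CPM in control ovaries. Testis over ovary, SCAR differed by -4.37 in mutants (edgeR, adjusted p = 3.61e-05) and -4.50 in controls (adjusted p = 4.69e-10) on the log2 scale. The 3′ UTR of zuc overlaps CG34163 over 67 bases (2L, 11988735 to 11988801), 5.84% of the exon bases of zuc, and CG34163 differed by -3.61 in mutants (adjusted p = 0.0036) and -4.09 in controls (adjusted p = 3.77e-06). Each neighbour was thus lower in testes like the gene it overlaps, and without a stated strand setting the reads of the shared bases cannot be told apart.

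TTLL4A, opposite aub, and CG14451, opposite mael, were higher in testes in both genotypes, where aub and mael were not called higher. aub overlaps TTLL4A by 79 bases of its 3′ UTR, and TTLL4A was higher in testes than in ovaries, by 1.81 in mutants (edgeR, adjusted p = 0.0176) and 1.59 in controls (adjusted p = 0.000171) on the log2 scale. The 5′ UTR of mael overlaps CG14451 by 246 bases, 11.4% of the exon bases of mael, and its last base lies opposite CG14450. CG14451 read 124, 146 and 237 CPM in mutant testes, against 175, 132 and 129.7 CPM in control testes, and 12.1, 2.43 and 16.4 CPM in mutant ovaries, against 11.3, 19.0 and 7.77 CPM in control ovaries. Testis over ovary, CG14451 differed by 3.77 in mutants (edgeR, adjusted p = 0.000835) and 3.38 in controls (adjusted p = 6.89e-07) on the log2 scale. mael itself was not called in either, though its control testes lay above its control ovaries without overlap. The share of all tested genes with such separation is not given here, and 75.7% of them were called between control tissues. The genotypes of CG14451 overlapped in both tissues, and the log2 difference between genotypes was 0.24 in testes (edgeR, adjusted p = 0.937) and -0.14 in ovaries (adjusted p = 0.999). CG14450 differed between genotypes by -0.55 in testes and 0.55 in ovaries, with adjusted p of 0.869 and 0.999 in edgeR. Testis over ovary, CG14450 was not called: it differed by -0.51 in mutants (edgeR, adjusted p = 0.558) and 0.48 in controls (adjusted p = 0.386). shu overlaps CG46398, which is not among the counted features, by 44 bases of its 3′ UTR. Of the opposite genes that were tested, none was called between genotypes in edgeR; CG34163 was below the count filter in testes.

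**Figure D5:**
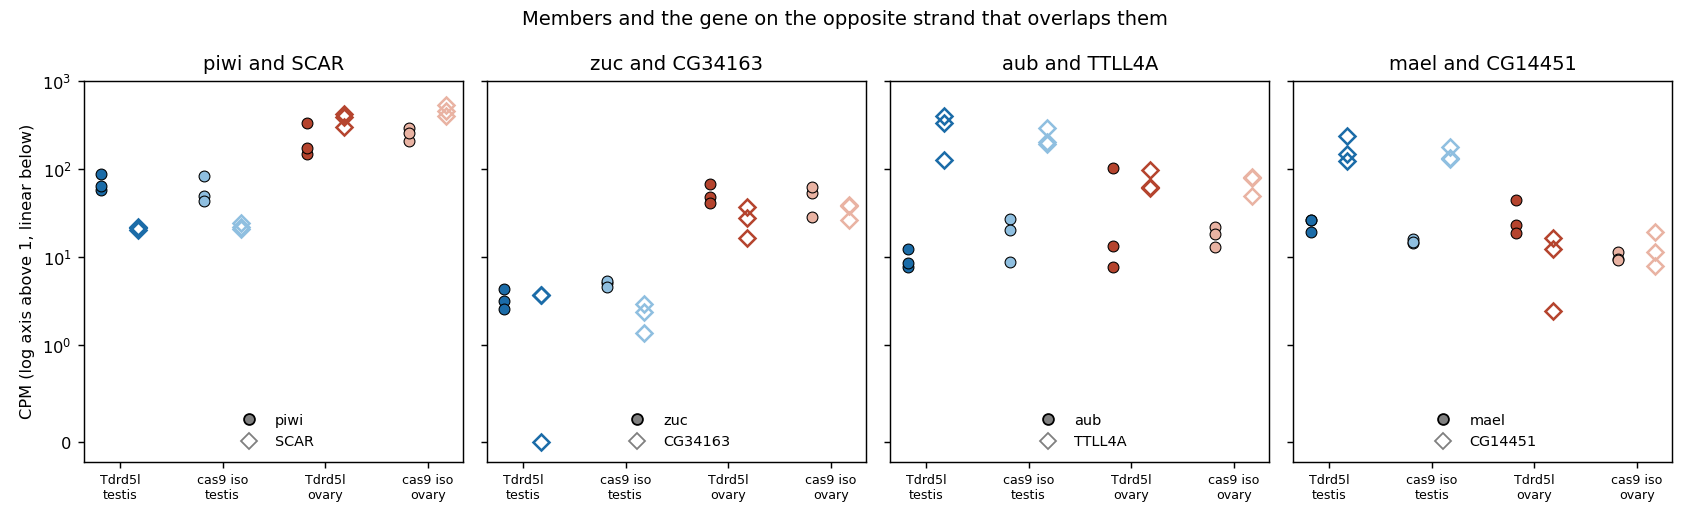
CPM of piwi, zuc, aub and mael (filled circles) and of the gene overlapping each on the other strand (open diamonds) in the 4 groups, 3 libraries each, on an axis that is logarithmic above 1 CPM. SCAR and CG34163 are lower in testes than in ovaries as piwi and zuc are, while TTLL4A and CG14451 are higher in testes.

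Other genes of the pathway were read from 3 lists. Of 19 further cytoplasmic piRNA factors, 18 were matched to counted features, all but vas. Between genotypes 0 of 16 tested in testes and 0 of 10 tested in ovaries passed in edgeR. The smallest p in testes was that of qin, which encodes a Tudor and RING domain protein of the ping-pong cycle, at 14.1 ± 2.69 CPM in mutants and 28.6 ± 6.78 CPM in controls (log2 difference -1.04, SE 0.39; edgeR, adjusted p = 0.405). Between control tissues 7 were higher in testes and 5 lower, of 15 tested, beside 49.3% and 26.5% of all tested genes. Tdrd5l (log2 difference 5.40, adjusted p = 1.12e-09) and Gasz, a mitochondrial scaffold of piRNA biogenesis (5.52, adjusted p = 1.76e-08), were higher in testes, and vls, part of the arginine methylation complex (-4.04, adjusted p = 4.18e-08), and tej, a nuage Tudor protein (-3.13, adjusted p = 7.65e-06), were lower. In mutants, 3 were higher and 3 lower of 16 tested, beside 38.2% and 19.3% of all tested genes, with the same 4 genes called in the same direction (Tdrd5l 4.84, Gasz 4.47, vls -4.64 and tej -3.85; edgeR, adjusted p of 2.42e-05 to 0.000592).

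Of the 15 nuclear piRNA factors, 0 of 8 tested in testes and 0 of 9 in ovaries passed between genotypes in edgeR. The smallest p in ovaries was that of Nxf3, an export factor for piRNA precursors, at 17.1 ± 6.85 CPM in mutants and 6.71 ± 3.28 CPM in controls (log2 difference 1.44, SE 0.55; edgeR, adjusted p = 0.999). Between control tissues 6 of 10 were called, beside 75.7% of all tested genes, and between mutant tissues 6 of 12, beside 57.5%. In controls 1 was higher in testes, nxf2 (3.94, adjusted p = 1.43e-06), and 5 were lower, led by ovo (-5.53, adjusted p = 1.76e-08) and tj (-4.46, adjusted p = 3.95e-06), transcription factors of germ line and gonadal soma. In mutants 1 was higher in testes, again nxf2 (3.50, adjusted p = 0.000493), and 5 were lower. The list had a median log2 difference of -1.51 between mutant tissues and -0.80 between control tissues, beside 0.83 and 1.04 over all tested genes. Of the 8 other Argonaute and Dicer pathway genes, 0 of 7 in testes and 0 of 6 in ovaries passed between genotypes. Between control tissues 5 of 7 were called, beside 75.7% of all tested genes, and between mutant tissues 3 of 7, beside 57.5%. In controls 3 were higher in testes, with Dcr-2, the siRNA Dicer, at 5.39 (edgeR, adjusted p = 1.26e-09), and 2 were lower, its partner r2d2 at -3.63 (adjusted p = 5.61e-06) and AGO1, the miRNA Argonaute, at -2.04 (adjusted p = 1.12e-05). In mutants 1 was higher, Dcr-2 (4.25, adjusted p = 0.00024), and r2d2 (-4.69, adjusted p = 2.24e-05) and AGO1 (-1.76, adjusted p = 0.0157) were lower.

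For the 3 PIWI genes the most alike patterns over the 12 libraries were sought among 10320 other genes, as the smallest root mean square difference of centred log2 levels. Nearest to piwi was AGO1 (0.212, beside a median of 1.81 over all genes), followed by Mcad (0.32) and SdhB (0.335), genes of fatty acid oxidation and of the respiratory chain. All 3 have exon bases opposite another gene, as do piwi and 4463 of the 17252 annotated features. Nearest to aub were slpr (0.324), CycA (0.383) and CG31688 (0.395), with a median of 1.52 over all genes. Here aub and CG31688 have opposite exon bases, and slpr and CycA have none. Nearest to AGO3 were CG11655 (0.277), flfl (0.351) and woc (0.397), with a median of 1.4. AGO3 and flfl have no opposite exon bases, whereas CG11655 has 8 and woc 1802. The 12 libraries share depth and the opposite-strand share given above, and likeness is a description only.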

How the data were processed

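Raw gene counts, 1 table for each of 12 libraries, were used as deposited by the authors. Per the submitters' processing notes, FastQC, TopHat2 2.1.1, HTSeq 0.9.1, DESeq and the BDGP6 build were used. The labels' protocols give 200 ng of RNA per library and a TruSeq v2 kit. Whether the reads keep their strand was not tested. The sources used here do not give the strand setting of the counting. The 5 HTSeq summary lines, 95.82% to 98.18% of records in a library, were left out of library sizes and tests. Symbols, positions and exon overlaps came from Ensembl 115 (BDGP6.54), which held 17252 features. The other 306 were not annotated, and 106 of 107 symbols on the lists and among the markers matched. The unmatched symbol, vas, is missing from the cytoplasmic list and from the sums of germline stem cell and spermatogonial markers.

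Comparisons used edgeR 4.0.16 in R 4.3.3: TMM scaling, genes kept by filterByExpr (minimum count 10), two-sided robust quasi-likelihood F tests and Benjamini-Hochberg adjusted p under 0.05 over all genes tested. Each comparison was fitted on its own 6 libraries, and the interaction on all 12. SEs and 95% intervals come from that fit. CPM are counts per 1e+06 gene counts. Alternatives were other scalings and filters, DESeq2 1.42.0, limma-voom (limma 3.58.1), a replicate block, all 12 libraries in 1 model, the opposite-strand share as a term, genes without an opposite exon alone, and leaving out each library. The fits were run on simulated counts with planted changes larger than any genotype difference of the set in the main fits. The simulation does not show whether smaller changes would be called. Libraries are called biological replicates in the labels; replicate numbers did not pair the libraries. The depth, 772292 to 2880119 gene counts, leaves the lowest genes with under 10 counts in a library. A 0 was read against a floor of 3 counts, which covers counting error only.

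The 10 genes and all lists were chosen with earlier results of these data known. Named are the 10 genes, Tdrd5l, the genes overlapping them, up to 4 called genes per list and comparison (otherwise up to 2 by smallest p), and the 3 genes most like each PIWI gene (log2 CPM, prior count 2). No sequences are printed.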

Additional observations from a re-analysis of the deposited data

How the results depend on the processing

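Between genotypes and for the interaction, the count of the 10 genes called stayed at 0 under all alternatives that were run, each library left out in turn included (0 to 0). In control tissues the 5 calls became 3 with upper quartile scaling, 3 with all 12 libraries in 1 model, 2 with only genes without an opposite exon (spn-E and Hen1; piwi, zuc and shu do not enter that fit) and 4 to 6 when a library was left out. In mutant tissues the 3 calls became 0 with only genes without an opposite exon, where piwi, zuc and aub do not enter, and 1 to 6 when a library was left out. With the overlap required to cover 50% of the opposite gene's exons, 0 of the 10 genes in place of 5 had an opposite feature. Depth limits zuc in testes and squ, shu and Hen1 in ovaries, which had too few counts to be tested.

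Some uncalled log2 differences turned sign, and the cause was not tested. In ovaries, mutant minus control, spn-E was at -0.060 with only genes without an opposite exon and at -0.55 with the opposite-strand share as a term, where armi was at -0.040. Between control tissues aub was at 0.069 with DESeq2 size factors, 0.087 with library size alone, 0.0043 with no filter and 0.063 with DESeq2. AGO3 and mael were there at -0.15 and -0.17 with upper quartile scaling, and AGO3 at -0.29 with only genes without an opposite exon. Between mutant tissues armi was at -0.35 with upper quartile scaling and -0.26 with only genes without an opposite exon. In the interaction shu was at 0.13 with limma-voom. When a library was left out, testis differences between genotypes ran from -0.075 to 0.65 for piwi, -0.30 to 0.0088 for armi and -0.14 to 0.46 for shu. Ovary differences between genotypes ran from -0.48 to 1.42 for aub, -0.26 to 1.25 for AGO3, -1.49 to 1.48 for spn-E, -0.75 to 0.90 for armi and -0.051 to 0.58 for zuc. Tissue differences ran from -0.30 to 0.30 for aub in controls, and in mutants from -0.88 to 0.27 for AGO3 and -0.041 to 1.37 for armi. Interaction values ran from -2.79 to 0.65 for squ, -1.44 to 1.26 for spn-E, -0.91 to 0.59 for armi and -1.05 to 1.31 for shu.

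Counts over all genes also moved. The 92 calls in testes became 58 with library size alone, 28 with only genes without an opposite exon, 9 with all 12 libraries in 1 model, 177 with the opposite-strand term, and 725 without mutant testis replicate 3, 49 without mutant testis replicate 2 and 52 without control testis replicate 1. The 0 in ovaries became 1 with upper quartile scaling, 7 with no filter, 3 with a filter at 1 CPM, 14 with DESeq2, 5 with all 12 libraries, 92 with the opposite-strand term and 55 without mutant ovary replicate 2. With only genes without an opposite exon, the 6381 and 5282 calls between control and mutant tissues were 3461 and 3358. The 3 interaction calls became 5 with DESeq2 size factors, 5 with upper quartile scaling, 6 with no filter, 13 with DESeq2, 6 with limma-voom and 1 to 6 when a library was left out. Upper quartile scaling moved the median tissue difference by -0.71 in mutants and -0.62 in controls, and the higher share of calls in mutants to 54.2% from 66.4%.

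Replicate numbers did not pair the libraries: correlations of same-numbered libraries were -0.562 to 0.297, and in no comparison did every library correlate best with its own number. With a replicate block, 0 genes of the set were called between genotypes, 2 between mutant and 4 between control tissues, and spn-E turned to -0.14 in ovaries. All calls were then 79 in testes, 0 in ovaries, 5082 and 5904 between mutant and control tissues and 2 for the interaction.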
